A study of Mus musculus with 15 samples.

Results

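The transcripts of 9 genes that make, receive and pass on the PACAP and cAMP signal were followed through mouse cerebellar granule neuron precursors and medulloblastoma. The genes were chosen by name: *Adcyap1*, *Adcyap1r1*, *Gnas*, *Gpr161*, *Prkaca*, *Prkacb*, *Prkar1a*, *Prkar2b* and *Pde4d*. All 9 of them were found among the 21889 genes of the gene count table by Ensembl gene ID, and all 9 had enough counts to be among the 15259 genes tested. RNA-seq of poly(A) RNA covered 15 cerebellar libraries in 5 groups of 3. Granule neuron precursors came from embryos at E15.5 with the genotype label Math1-GFP and from wild type animals at P1, P7 and P14. Medulloblastoma cells (MB) came from Ptch1 heterozygous mice, with no age given. Both kinds of cells were enriched by Percoll fractionation, a density separation that selects small cells and not a marker, and the labels do not say how many animals a library holds. Embryonic age comes with the Math1-GFP label, so the step from E15.5 to P1 is also a step between genotype labels, and the 2 cannot be told apart.

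PACAP is a secreted neuropeptide. Its receptor PAC1 couples to the stimulatory G protein alpha subunit, which activates adenylyl cyclases, and the cAMP they make releases the catalytic subunits of protein kinase A (PKA) from its regulatory subunits. In granule neuron precursors, which divide in response to Sonic hedgehog from Purkinje cells, PKA phosphorylates the Gli transcription factors and so restrains the hedgehog response. Gpr161, a receptor of the primary cilium that raises cAMP, acts on the same step, and phosphodiesterases such as Pde4d end the signal by breaking down cAMP. *Ptch1* encodes the hedgehog receptor that holds the pathway off, and its loss gives medulloblastomas of the hedgehog type.

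Counts in genes ranged from 12597472 to 43443132 per library, and 15818 to 17286 genes had a count. The granule lineage markers were present in every group, with summed levels of 3012 to 7596 CPM (counts scaled to a common library size), and *Gabra6*, a marker of mature granule neurons, was at 0 in all E15.5 libraries. Markers of other cells were present too. Those of astroglia summed to 152.5 to 391.3 CPM at E15.5, to 2046 to 4581 CPM in the postnatal libraries and to 1149 to 1461 CPM in MB. Those of GABAergic interneurons were highest at E15.5 (465.1 to 637.9 CPM) and near 0 in MB (5.04 to 8.33 CPM). Those of oligodendrocytes were at 70.96 to 105.1 CPM at E15.5, 928 to 1781 CPM at P7 and 5442 to 5894 CPM at P14. At P1 they were at 609, 951.3 and 3575 CPM, so P1 replicate 3 lay above every P7 library. Those of choroid plexus ran from 297.6 to 10373 CPM among the P1 libraries, from 14.4 to 1979 CPM at P7 and from 5136 to 8520 CPM at P14. The part of these cells in the results was not tested. In bulk RNA, fewer cells of a type and less RNA per cell cannot be told apart. The libraries also fell into 2 sets by how the gene and transcript tables counted some overlapping genes: the low set held the P7 group, MB replicate 1 and E15.5 replicates 1 and 3, and the high set held the remaining 9. P7 lies wholly in one set and P1 and P14 wholly in the other, so set and age cannot be told apart between them. For 7 of the 9 members the ratio of the 2 tables differed by no more than 1.04-fold between libraries. It differed 1.3-fold for *Pde4d* and 15.3-fold for *Gnas*.

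*Adcyap1*, the PACAP gene, fell from E15.5 to P14 and was high again in MB. *Prkar2b* and *Gpr161*, a PKA regulatory subunit and the ciliary receptor, fell from E15.5 to P1, had higher values at P7, and were lower at P14 and in MB than at P7. *Prkar1a* and *Prkacb* passed no test in any comparison. A difference was called with edgeR's quasi-likelihood F-test at a Benjamini-Hochberg adjusted p (FDR) under 0.05 over all genes tested, and fold changes are on the log2 scale with their standard error (SE).

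**Figure D1:**
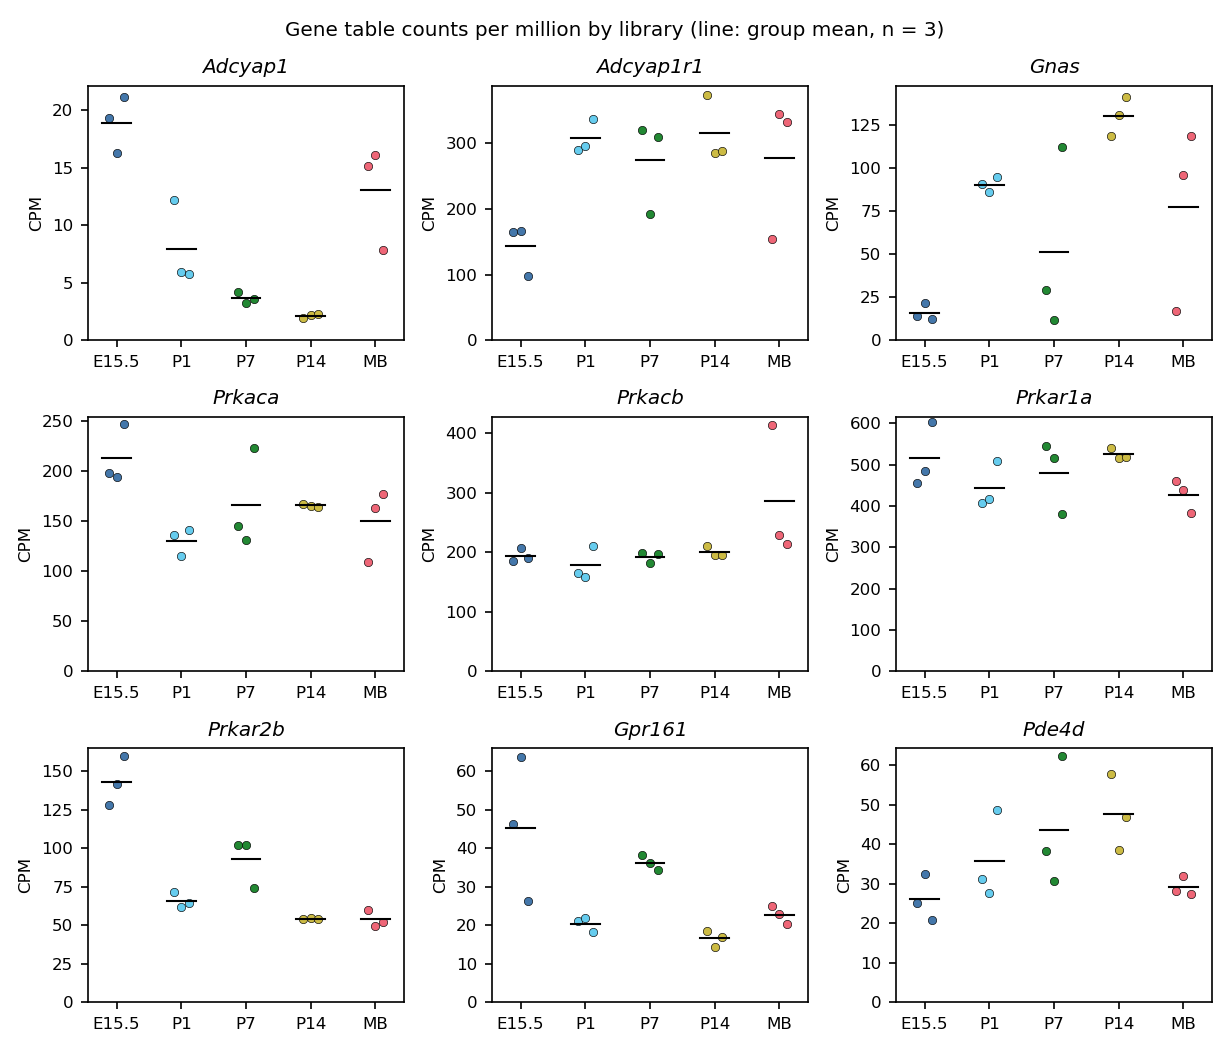
Gene table level of each member in every library, in CPM on linear axes that start at 0, for E15.5, P1, P7, P14 and MB. Points are libraries and lines are group means (n = 3). *Adcyap1* steps down from E15.5 to P14 and is high in MB, while *Prkar1a* stays between 381.7 and 604.4 CPM in all 15 libraries.

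*Adcyap1* (ENSMUSG00000024256, mm9 chr17:93598762-93604825, plus strand, 5 exons) stood at 19.3, 16.3 and 21.1 CPM in E15.5 replicates 1 to 3. It stood at 12.2, 5.93 and 5.73 CPM in the P1 libraries, replicate 1 being the highest. The P7 libraries held 4.24, 3.23 and 3.62 CPM, the P14 libraries 1.99, 2.17 and 2.31 CPM, and the MB libraries 15.2, 16.1 and 7.85 CPM. No age overlapped the next, and every MB library lay above every P7 and P14 library but overlapped the P1 range. The fall from E15.5 to P1 was -1.25 ± 0.32 on the log2 scale (SE, FDR = 0.00499), and the fall from P1 to P14 was -1.88 ± 0.33 (FDR = 0.00558). The separate steps from P1 to P7 (-1.10 ± 0.32, FDR = 0.0726) and from P7 to P14 (-0.78 ± 0.33, FDR = 0.135) did not pass. MB exceeded P7 by 1.82 ± 0.33 (FDR = 0.000472) and P14 by 2.60 ± 0.34 (FDR = 1.78e-05), 3.53-fold and 6.04-fold in mean CPM. The GABAergic interneuron list also fell from E15.5 to P1 (167.6 to 217.3 CPM), and its part in the early fall of *Adcyap1* was not tested. In MB, where *Adcyap1* was high, the same list was at 5.04 to 8.33 CPM. The early fall was no longer called within the high set, where E15.5 replicate 2 alone was set against P1 and assumed to vary like the others (-1.04, FDR = 0.113).

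The genome sequence before the start sites is shown for the ligand and the receptor, because their transcripts moved in opposite directions after E15.5, and around the only full cAMP response element found at a member. The sequences are those of RefSeq with build GRCm38.p6, read 5′ to 3′, and are not in the mm9 coordinates of the count tables. Capitals mark the element TGACGTCA or its half-site TGACG.

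*Adcyap1*, chr17:93198767-93199016, plus strand, the 250 bases before the start site: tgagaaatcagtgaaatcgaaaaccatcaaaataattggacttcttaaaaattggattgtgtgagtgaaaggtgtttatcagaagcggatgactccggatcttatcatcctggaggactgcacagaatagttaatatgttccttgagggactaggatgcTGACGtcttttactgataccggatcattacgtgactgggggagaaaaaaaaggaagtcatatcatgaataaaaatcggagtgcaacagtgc

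*Adcyap1r1*, chr6:55451728-55451977, plus strand, the 250 bases before the start site: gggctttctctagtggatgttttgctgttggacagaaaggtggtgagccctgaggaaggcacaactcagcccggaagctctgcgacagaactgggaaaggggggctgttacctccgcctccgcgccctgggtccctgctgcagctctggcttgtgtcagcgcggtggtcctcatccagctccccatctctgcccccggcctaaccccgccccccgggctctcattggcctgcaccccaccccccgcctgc

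*Prkar1a*, chr11:109650889-109650918, plus strand, 30 bases around the element: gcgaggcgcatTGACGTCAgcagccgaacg

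All 9 members had such windows, 23 in all, and both strands were searched. *Adcyap1* had 2 windows with different start sites, of which the first is shown, and *Prkar1a* had 6. Which start the counted transcripts use was not tested. The full element stood in 1 of the 23 windows, a window of *Prkar1a*, at 49 to 42 bases before its start site. It is held by 1.55% of 32851 RefSeq windows of the same length. The half-site (TGACG or, on the other strand, CGTCA), which is also part of the full element, stood in 10 windows, against 17.8% of all windows. By gene, it stood in 5 of the 9 members, *Adcyap1*, *Gnas*, *Prkaca*, *Prkacb* and *Prkar1a*, against 19.8% of 27025 genes. The full element stood in 1 of the 9, against 1.77% of genes. Several windows of a gene overlap, so a window count takes the same site more than once. The Gli motif GACCACCCA (TGGGTGGTC on the other strand) was in none of them, against 0.225% of all windows. The windows of *Adcyap1r1*, *Prkar2b*, *Gpr161* and *Pde4d* held none of the motifs. The ligand's window shown was 39.6% G and C and the receptor's 65.6%, beside a median of 52.4% over all windows. The 23 member windows had a median of 61.6%, and the part of this content in the motif counts was not tested.

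*Adcyap1r1* (ENSMUSG00000029778, mm9 chr6:55402022-55451445, plus strand, 16 exons), which encodes the PACAP receptor, rose between E15.5 and P1 and passed no other comparison of 2 groups. Its levels at E15.5 were 164.8, 166.8 and 98.9 CPM. They were 289.8, 296.4 and 337.2 CPM at P1, 320.5, 193.1 and 309.9 CPM at P7, and 373.7, 284.7 and 288.3 CPM at P14. All E15.5 libraries lay below all postnatal ones, whose ages overlapped. The step to P1 was 1.10 ± 0.29 (FDR = 0.00663), 2.15-fold in mean CPM. The astroglia markers rose at the same step, from 152.5 to 391.3 CPM to 2622 to 3948 CPM, with all 8 of them above 0 in every group, and their part in the rise was not tested. A term for the counting set lowered the step to 0.61 (FDR = 0.141). In MB the libraries stood at 155.2, 344.7 and 332.5 CPM: replicate 1 lay in the E15.5 range and the others among the postnatal values. MB did not differ detectably from P7 (0.02 ± 0.29, FDR = 0.977).

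Ligand and receptor thus took different courses, which a ratio per transcript length shows without the library scale. The receptor to ligand ratio of reads per kilobase averaged 2.71 ± 1.01 (SD, n = 3) at E15.5, 15.2 ± 6.40 at P1, 25.5 ± 4.44 at P7 and 51.4 ± 12 at P14. In MB it was 3.55, 7.46 and 14.4 in the 3 libraries. The ratios of the 4 ages did not overlap, and those of MB lay above the E15.5 range except in replicate 1, which fell inside it, and below every P7 and P14 library.

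**Figure D2:**
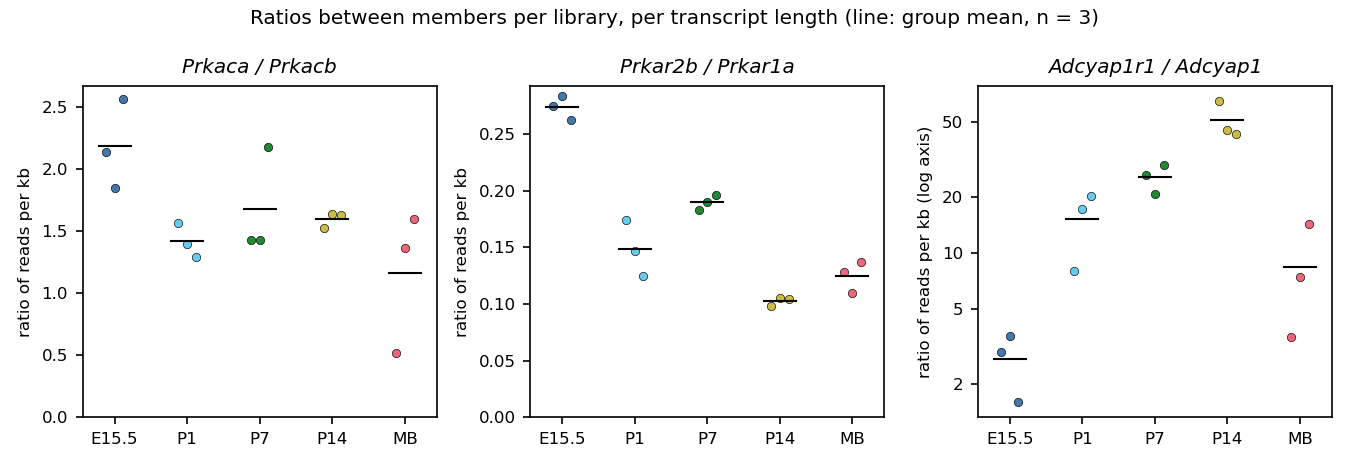
Ratios of reads per kilobase per library, *Prkaca* to *Prkacb* and *Prkar2b* to *Prkar1a* on linear axes from 0 and *Adcyap1r1* to *Adcyap1* on a log axis. Points are libraries and lines are group means (n = 3). The receptor to ligand ratio climbs from 2.71 at E15.5 to 51.4 at P14, and MB replicate 1 stands apart at 0.517 for the catalytic subunits.

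*Gnas* (ENSMUSG00000027523, mm9 chr2:174153269-174172245, plus strand, 13 exons) encodes the stimulatory G protein alpha subunit. Its 2 count tables differed: only the gene table called a change from E15.5 to P1. In the gene table it stood at 14.3, 21.9 and 12.2 CPM at E15.5, at 90.7, 86.1 and 94.8 CPM at P1, at 29.4, 12.1 and 112.3 CPM at P7, at 118.9, 131.0 and 141.3 CPM at P14 and at 17.3, 96.3 and 119.0 CPM in MB. By that table *Gnas* was called higher at P1 than at E15.5, by 2.50 ± 0.69 (FDR = 0.00792). In the transcript table the E15.5 libraries held 1360, 1209 and 1910 CPM and the P1 libraries 1114, 1034 and 1220 CPM. The difference there was -0.41 ± 0.32 (FDR = 0.305), and the groups overlapped. The gene table held 0.565% to 8.63% of the reads of the transcript table over *Gnas*. The share was 7.08% to 8.63% in every P1 and P14 library and 0.565% to 3.67% in every E15.5 and P7 library. In MB it was 1.28% in replicate 1, of the low set, and 6.57% and 7.74% in replicates 2 and 3, of the high set. E15.5 replicate 2, also of the high set, stood at 1.6%. An antisense gene, *Gm20721* (ENSMUSG00000090625), lies over 1466 of the 3903 exonic bases of the *Gnas* transcript (37.6%), and its own gene table count was 0 to 13. Of the 2437 exonic bases outside it, 2385 lie in the first and second exons, so few lie in the later exons. How much of the gene table count comes from those first exons was not tested. Whether the counting used strand is not given in the sources used here, and its part in the low gene table share was not tested. In the transcript table the later groups stood at 1003, 1030 and 2750 CPM at P7, 1409, 1425 and 1450 CPM at P14 and 1237, 1307 and 1358 CPM in MB. P7 replicate 3 was the highest library, followed by E15.5 replicate 3, and no comparison of *Gnas* was called in that table.

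**Figure D3:**
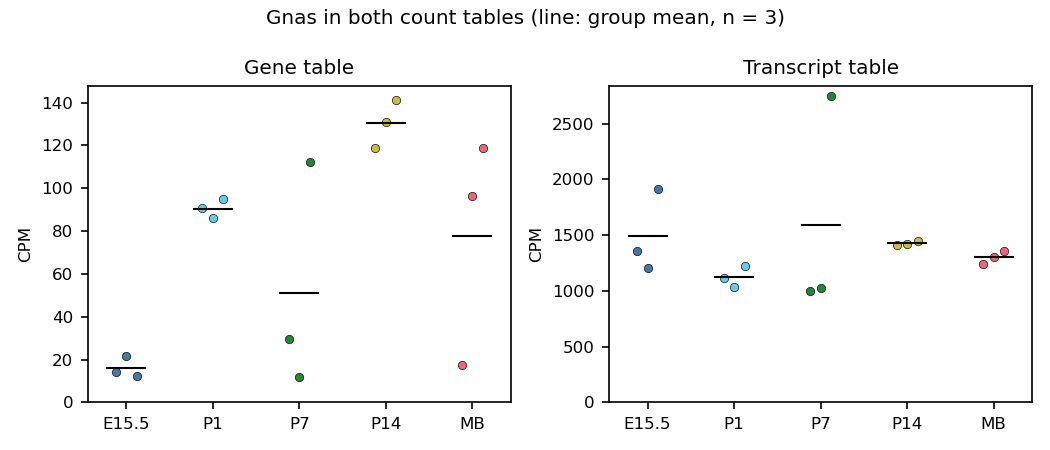
*Gnas* CPM per library in the gene table (left) and the transcript table (right), on linear axes from 0. Points are libraries and lines are group means (n = 3). The gene table lifts P1 above E15.5, at 86.1 to 94.8 against 12.2 to 21.9 CPM, and the transcript table has the 2 groups overlapping.

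*Gpr161* (ENSMUSG00000040836, mm9 chr1:167232756-167253061, plus strand, 6 exons), the ciliary receptor, was highest at E15.5 and P7. It stood at 46.3, 63.6 and 26.2 CPM at E15.5 and at 21.2, 22 and 18.2 CPM at P1. The P7 libraries held 38.3, 36.3 and 34.4 CPM, the P14 libraries 18.6, 14.3 and 17.0 CPM and the MB libraries 25.1, 22.9 and 20.4 CPM. E15.5 lay above P1 in all libraries, P7 lay above P1, P14 and MB in all libraries, and MB overlapped P1. *Gpr161* fell from E15.5 to P1 (-1.15 ± 0.25, FDR = 0.00188) and from P7 to P14 (-1.13 ± 0.25, FDR = 0.0155). It was lower in MB than in P7 (-0.67 ± 0.25, FDR = 0.0478), a call at the edge that held in 7 of 24 alternatives. The higher value at P7 than at P1 did not pass (0.83 ± 0.25, FDR = 0.0806). The interneuron markers were at 465.1 to 637.9 CPM at E15.5, 167.6 to 217.3 at P1, 194.7 to 285.7 at P7, 115.2 to 174.2 at P14 and 5.04 to 8.33 in MB, and their part in these falls was not tested. The P7 to P14 fall was not called with a term for the counting set, or without P7 replicate 2, P14 replicate 2 or P14 replicate 3, with FDR up to 0.086 and log2 values of -1.43 to -1.03 over its alternatives.

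The catalytic subunits of PKA moved little. *Prkaca* (ENSMUSG00000005469, mm9 chr8:86496877-86520344, plus strand, 10 exons), the alpha subunit, stood at 198.0, 194.5 and 247.5 CPM at E15.5 and at 136.1, 115.6 and 141.0 CPM at P1, with no overlap. This fall was called (-0.71 ± 0.22, FDR = 0.0152), though not without P1 replicate 2 (-0.62, FDR = 0.0664). The P7 libraries held 145.1, 131.1 and 223.7 CPM, the P14 libraries 164.9 to 167.9 CPM and the MB libraries 109.6, 163.4 and 177.9 CPM. P7 replicate 3 lay inside the E15.5 range and was the highest of its group, as for *Gnas*, and P14 lay inside the P7 range. *Prkacb* (ENSMUSG00000005034, mm9 chr3:146392543-146475924, minus strand, 10 exons in its most counted transcript), the beta subunit, held 158.6 to 210.9 CPM in all 12 precursor libraries. Its MB libraries stood at 414.1, 229.1 and 213.1 CPM, all above the precursors. The excess over P7 (0.57 ± 0.21, FDR = 0.0515) and over P14 (0.51 ± 0.21, FDR = 0.06) missed the threshold. The excess over P7 passed in 7 of 24 alternatives, among them DESeq2 (0.60, FDR = 0.035) and the low set alone (1.16, FDR = 0.0133), and that over P14 in 4 of 24. With MB replicate 1 left out the values fell to 0.20 (FDR = 0.318) and 0.15 (FDR = 0.45). Per transcript length, the *Prkaca* to *Prkacb* ratio was 2.14, 1.85 and 2.57 at E15.5 and 1.29 to 1.57 at P1. In MB it was 1.37 and 1.60 in replicates 2 and 3 and 0.517 in replicate 1, the only library with more beta than alpha. MB replicate 1 also had the lowest share of records in genes (39.5%) and the highest share with several alignments (44.6%) of all libraries. Its microglia and macrophage markers summed to 394.1 CPM, against 162.8 and 136.3 CPM in MB replicates 2 and 3. The part of these differences was not tested.

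The regulatory subunits differed from each other. *Prkar1a* (ENSMUSG00000020612, mm9 chr11:109510719-109530970, plus strand, 11 exons), the type I alpha subunit, was the most abundant of the 4 kinase genes by length, with group means of 117.7 to 141.8 scaled reads per kilobase. It passed no test, and its group means of 427.6 to 525.5 CPM stayed within 1.23-fold. *Prkar2b* (ENSMUSG00000002997, mm9 chr12:32643341-32746161, minus strand, 11 exons), the type II beta subunit that anchoring proteins hold at defined sites of the cell, stood at 128.3, 141.5 and 159.5 CPM at E15.5. It stood at 71.8, 61.8 and 64.2 CPM at P1, 102.0, 101.8 and 74.5 CPM at P7, 54.3, 54.8 and 54.1 CPM at P14 and 60.0, 49.3 and 52.2 CPM in MB. No 2 neighbouring ages overlapped, P14 lay below P1, and MB overlapped P14 only. *Prkar2b* fell from E15.5 to P1 (-1.12 ± 0.16, FDR = 6.3e-05) and from P7 to P14 (-0.77 ± 0.16, FDR = 0.0118), and was lower in MB than in P7 (-0.79 ± 0.16, FDR = 0.00122). The excess of P7 over P1 did not pass (0.49 ± 0.16, FDR = 0.0955), and MB and P14 differed by -0.02 ± 0.16 (FDR = 0.945). The P7 to P14 call was lost without P7 replicate 2 or P14 replicate 2, and when the counting set was a term of the model, with values of -0.70, -0.78 and -0.64 (FDR up to 0.131). The MB call was lost within the low set, where MB replicate 1 stands alone (-0.58, FDR = 0.222). Interneuron markers were also higher at E15.5 than at P1 and lower in MB than at P7, and their part in these falls was not tested. Per length, the *Prkar2b* to *Prkar1a* ratio was 0.262 to 0.283 at E15.5, 0.125 to 0.174 at P1, 0.183 to 0.196 at P7, 0.0985 to 0.105 at P14 and 0.110 to 0.137 in MB. The ratios of the 4 ages did not overlap, and the ratio was highest at E15.5 and lowest at P14.

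*Pde4d* (ENSMUSG00000021699, mm9 chr13:109444371-110743669, plus strand, 11 transcripts), the cAMP phosphodiesterase, spread widely within groups. It stood at 25.2, 32.5 and 20.9 CPM at E15.5, 31.3, 27.6 and 48.7 CPM at P1, 38.3, 30.7 and 62.3 CPM at P7, 57.7, 38.7 and 46.9 CPM at P14 and 28.2, 31.9 and 27.5 CPM in MB. Neighbouring ages overlapped, and MB lay below P14 in all libraries. Only that difference was called (-0.71 ± 0.28, FDR = 0.045), and it held in 10 of 24 alternatives. The transcript table gave -0.50 (FDR = 0.119), which did not pass. The single start site model of the gene, with 60.7% of its counts, lay on either side of the threshold by the models fitted with it, at -0.75 (FDR = 0.0447) among 16378 models and at -0.72 (FDR = 0.0505) among the 10591 genes that models name.

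**Figure D4:**
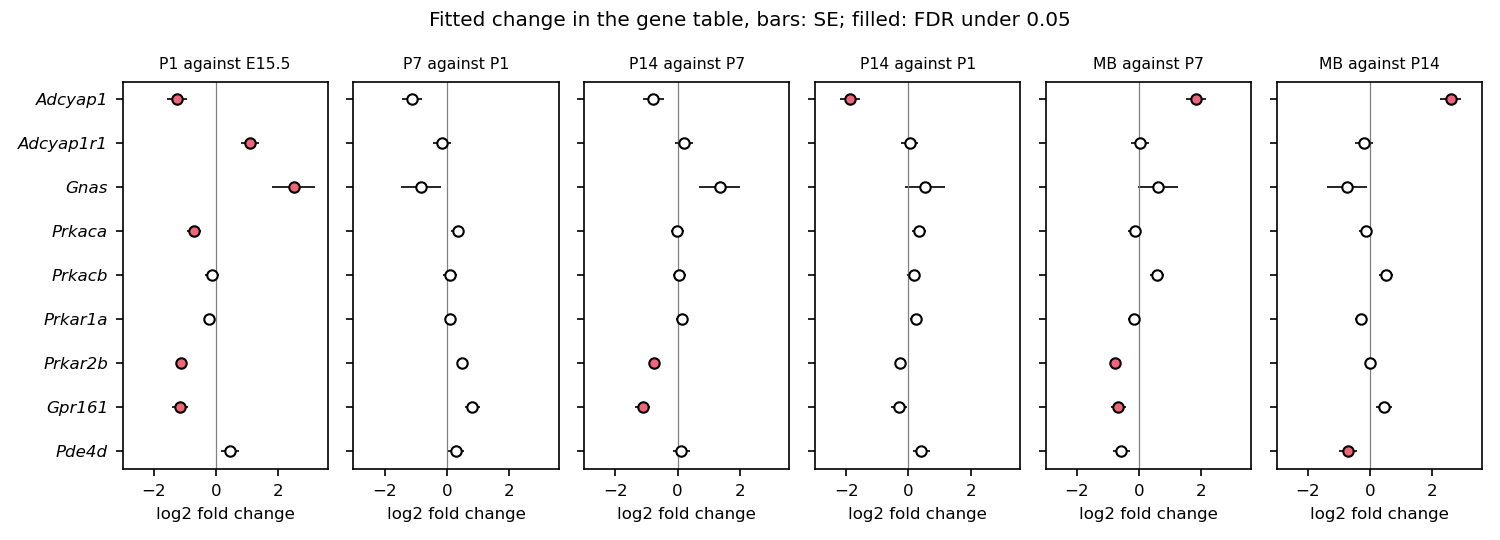
Fitted log2 fold change of each member in the gene table for the 6 comparisons of 2 groups, with SE as bars. Filled points have FDR under 0.05, and *Gnas* is drawn from the gene table, whose rise at P1 (2.50) was not called in the transcript table (-0.41, FDR = 0.305).

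Counted over the members, P1 against E15.5 called 6 of 9, with *Adcyap1r1* and *Gnas* higher and *Adcyap1*, *Gpr161*, *Prkaca* and *Prkar2b* lower. The *Gnas* call was that of the gene table, and the transcript table gave -0.41 and no call (FDR = 0.305). In that comparison 46.3% of all genes tested were called, 25.4% higher and 20.9% lower. The members' median was -0.21 and that of all genes 0.03. P7 against P1 called none of the 9, where 3.15% of all genes were called (1.4% higher, 1.74% lower), although *Adcyap1*, *Prkar2b* and *Gpr161* had an unadjusted p under 0.05 and DESeq2 called 2 of them, *Adcyap1* and *Gpr161*. P14 against P7 called *Prkar2b* and *Gpr161*, both lower, beside 10.3% of all genes (5.81% higher, 4.51% lower). P14 against P1 called *Adcyap1* alone, lower, beside 8.94% (3.63% higher, 5.31% lower). MB against P7 called 3, *Adcyap1* higher and *Prkar2b* and *Gpr161* lower, beside 34.5% of all genes (13.7% higher, 20.7% lower). MB against P14 called 2, *Adcyap1* higher and *Pde4d* lower, beside 50% of all genes (22.9% higher, 27.2% lower). A test for any difference among the 4 ages called 5 members, *Adcyap1* (FDR = 1.08e-05), *Prkar2b* (2.16e-05), *Gpr161* (0.000595), *Gnas* (0.0106) and *Adcyap1r1* (0.0153), beside 55.7% of all genes. The calls of *Gnas* (FDR = 0.0526) and *Adcyap1r1* (FDR = 0.107) among the ages were lost without E15.5 replicate 3. *Gnas* was not called among the ages in the transcript table (FDR = 0.497). Comparisons that share a group share its libraries, so their values are not independent. The members' shares lay near those of all genes for P14 against P1, for MB against P7 and for the ages, and below that for MB against P14. Groups of 3 libraries that did not overlap were common among all genes too. For P1 against E15.5 they did not overlap in 6 of the 9 members, beside 57.8% of all genes. The counts were 3 for P7 against P1 (28.7%), 4 for P14 against P7 (46.3%) and 5 for P14 against P1 (51.4%). For MB they were 4 against P7 (41.6%) and 5 against P14 (61.4%). With 9 members, these shares lay near those of all genes.

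The profiles most like those of the members were sought over the 15 libraries among 11576 genes, by the root mean square difference of log2 CPM after each gene was centred on its mean. For *Adcyap1* these were *Scn3a* (0.44), *Sorcs3* (0.45) and *Smyd5* (0.47), where the median gene differed by 1.21. For *Adcyap1r1* they were *Ccdc157* (0.18), *Irf2bp2* (0.21) and *Lrp5* (0.23), for *Prkar2b* *Eef1akmt2* (0.16), *Zfp7* (0.17) and *Dnajc7* (0.18), and for *Gpr161* *Cttnbp2nl* (0.21), *Hunk* (0.24) and *Trp53bp1* (0.25). For *Gnas* in the gene table they were *Zfp703* (0.63), *Ppp1cc* (0.70) and *Uncx* (0.72). The median gene differed by 0.747 from *Adcyap1r1*, 0.694 from *Prkar2b*, 0.715 from *Gpr161* and 1.471 from *Gnas*. Among pairs of members, *Prkar2b* and *Gpr161* differed by 0.373 and *Adcyap1* and *Adcyap1r1* by 1.55. Closer pairs were *Prkaca* and *Prkar1a* (0.353) and *Prkacb* and *Prkar1a* (0.356). These genes varied little about their own means (0.321 for *Prkaca*, 0.302 for *Prkacb* and 0.192 for *Prkar1a*), so their small differences do not show shared changes. The farthest pair was *Adcyap1* and *Gnas* in the gene table (2.21).

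Around the members, 81 other genes of cAMP signalling and its hedgehog targets were read from a list by class, of which 78 were tested. Between E15.5 and P1, 26 rose and 13 fell (50% against 46.3% of all genes). The 10 called phosphodiesterases of 13 were 7 higher and 3 lower, 4 of 10 adenylyl cyclases were higher and none lower, and 4 of 8 G protein subunits were lower and none higher. *Prkar1b*, the type I beta regulatory subunit, fell from 103.1 ± 28.6 to 26.5 ± 10.2 CPM (SD, n = 3), by -1.96 (FDR = 3.1e-05), alongside the fall of *Prkar2b*. From P7 to P14 *Prkar1b* was called higher (0.87, FDR = 0.0401) and *Prkar2b* lower (-0.77). P7 and P14 lie in different counting sets, and the *Prkar2b* call held in 20 of 23 alternatives. The *Prkar1b* value was picked after it was seen, and its alternatives are not reported here. *Pde1b*, a calmodulin-dependent phosphodiesterase, fell from 120.3 to 52.4 CPM (-1.20, FDR = 0.00172). *Hhip*, which binds hedgehog ligands and is itself a hedgehog target, rose from 0.467 to 18.1 CPM (5.18, FDR = 6.52e-07). *Adcy4*, an adenylyl cyclase, rose from 0 to 0.473 CPM per library to a mean of 7.30 CPM (4.54, FDR = 8.88e-06), a size that rests on few E15.5 counts, while the endothelial markers rose from 11.2 to 30.5 CPM to 376.2 to 567.1 CPM, and their part was not tested.

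P7 against P1 called 1 of the 78 tested genes of the list (1.28% against 3.15% of all genes), *Drd1*, lower and below 1 CPM in both groups. P14 against P7 called 6 higher and 3 lower (11.5% against 10.3%), among them both Epac genes, *Rapgef3* (1.02, FDR = 0.0273) and *Rapgef4* (1.11, FDR = 0.0473), which encode the other class of cAMP-binding effector. *Gli2*, a Gli factor that PKA phosphorylates, fell from 166.7 ± 31.3 to 66.7 ± 15.8 CPM (-1.32, FDR = 0.0228) and *Pde1c*, another calmodulin-dependent phosphodiesterase, from 212.0 to 85.0 CPM (-1.32, FDR = 0.00861). The calmodulin-regulated cyclase *Adcy1* rose from 325.9 ± 60.3 to 847.1 ± 78.4 CPM (1.38, FDR = 0.0432) and *Adcy4* from 4.73 to 12.6 CPM (1.41, FDR = 0.0432), with endothelial markers at 284.6 to 347.8 CPM at P7 and 691.4 to 724.6 CPM at P14. The *Gli2* call held in 17 of 23 alternatives, that of *Adcy4* in 13 of 23 and that of *Adcy1* in 12 of 22, with FDR up to 0.51. P14 against P1 called 4 higher and 4 lower (10.3% against 8.94%). *Pde1c* (-1.68, FDR = 0.00116) and *Adcy7* (-0.98, FDR = 0.0212) fell, and *Crhr1*, the corticotropin-releasing hormone receptor (1.72, FDR = 0.0273), and *Adcy1* (1.37, FDR = 0.0471) rose. P1 libraries spread from 164.6 to 613 CPM for *Adcy1*, and its P1 to P14 call held in 9 of 23 alternatives. They spread from 5.36 to 24.7 CPM for *Crhr1*, whose call held in 18 of 24 (FDR up to 0.144). The *Adcy7* call held in 19 of 24 (FDR up to 0.118).

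In MB the wider list was called mostly lower. Against P7, 8 genes were higher and 27 lower (44.9% against 34.5% of all genes), and against P14, 16 were higher and 31 lower (60.3% against 50%). The classes differed in direction. Of 12 tested ligands and receptors, 6 were lower than at P7 and 8 lower than at P14 and none was higher in either. Of 9 hedgehog factors and readout genes, 5 were higher and 1 lower against P7, and 7 higher and 1 lower against P14. *Crhr1* was at 0.415 ± 0.059 CPM in MB against 17.9 ± 3.80 at P7 (-5.43, FDR = 2.49e-06) and 39.5 ± 0.791 at P14 (-6.57, FDR = 3.95e-07). *Adcy4* was at 0.349 CPM in MB (-3.74 against P7, FDR = 3.38e-05, and -5.15 against P14, FDR = 1.44e-06), with endothelial markers at 17.6 to 31.5 CPM in MB and 284.6 to 724.6 CPM at P7 and P14. *Pde1a* rose from 3.57 ± 1.51 CPM at P7 to 15.1 ± 8.81 CPM (2.07, FDR = 0.000747). *Gli1*, the hedgehog target and Gli activator, rose from 130.5 ± 15.8 CPM at P7 to 546.6 ± 300.7 CPM (2.07, FDR = 0.000616), and exceeded P14 by 3.03 (FDR = 1.91e-05). Its MB libraries ran from 207.7 to 781.2 CPM, and within the low set, where MB replicate 1 stands alone, the value against P7 was 0.72 (FDR = 0.131).

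**Figure D5:**
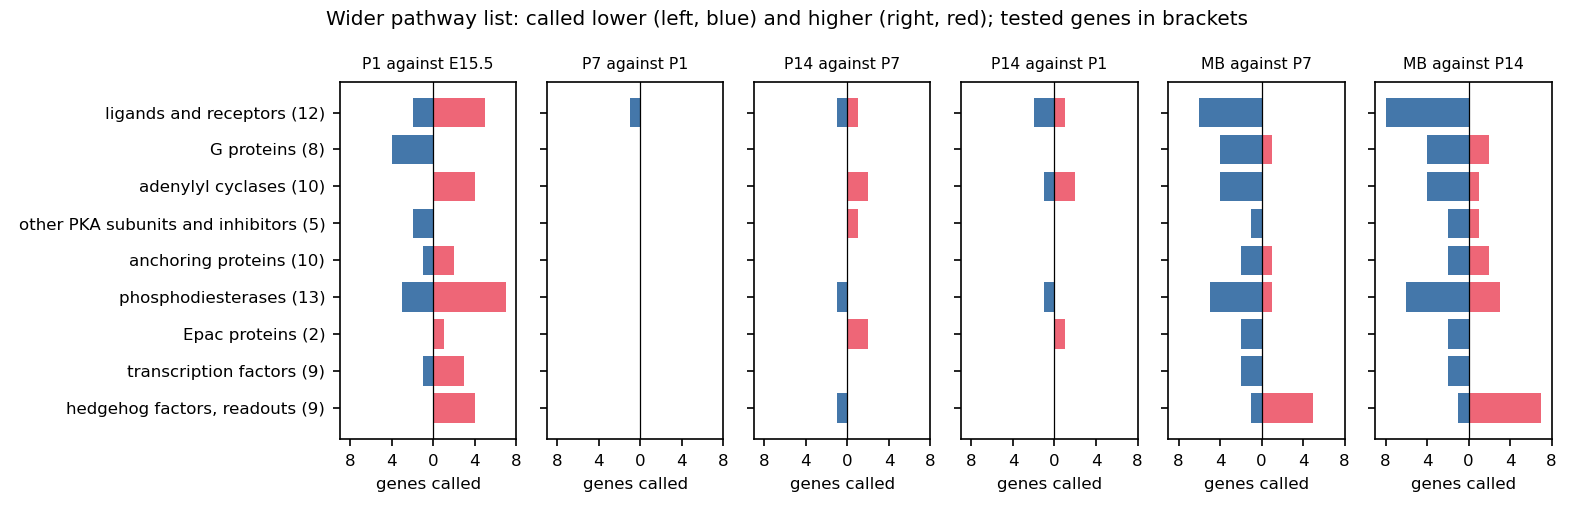
Genes of the wider list called lower (left, blue) and higher (right, red) in each comparison by class, with the number tested in brackets. In both MB comparisons, ligands and receptors are called lower in 6 and 8 cases and hedgehog factors and readouts higher in 5 and 7.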

How the data were processed

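The authors deposited 3 raw count tables per library (genes, start site models, transcripts), per the file headers and values. Trimmomatic, TopHat, StringTie, HTSeq and build mm9 are named in the submitters' processing notes, without versions. The 5 HTSeq summary lines were left out. Between 39.5% and 55.4% of a library's records were counted in genes.

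Gene counts were filtered with filterByExpr (minimum count 10, total 15), scaled with TMM and fitted with edgeR 4.0.16 in R 4.3.3, with 5 group means over 15 libraries and 10 residual degrees of freedom. CPM use library sizes after TMM; reads per kilobase use the most counted transcript of the transcript table. The script was tested on simulated data. Alternatives were DESeq2 1.42.0, RLE scaling, no filter, groups alone, the other tables, a replicate block, the counting sets and leaving out each library. Counting sets follow from the share of *Tsnax* reads that the gene table keeps (under 1% or not).

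Members and lists were chosen with earlier results of these data known. All members are named. The wider list names the 2 largest called rises and falls per comparison with a mean of at least 5 CPM. *Drd1*, *Rapgef3*, *Rapgef4* and the P7 to P14 value of *Prkar1b* were added after their values were seen. Not every gene this rule names is reported here. The 3 nearest profiles are named for members whose group means differ at least 2-fold. Nothing says replicates were separate animals, so p-values cover the spread between these libraries.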

Additional observations from a re-analysis of the deposited data

How the results depend on the processing

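Of 19 called values of single members, 8 were called in every alternative, among them both MB calls of *Adcyap1* (1.64 to 2.09 against P7, 2.42 to 2.86 against P14) and the falls of *Prkar2b* and *Gpr161* from E15.5 to P1. Over 1464 values of single members under 25 alternatives, 1337 kept direction and side of the threshold, 46 lost a call, 38 gained one and 43 changed sign. Unless stated, the cause was not tested. The number of members called moved as follows. DESeq2 called 2 for P7 against P1, beside 7.93% of all genes. With a term for the counting set 0 were called for P14 against P7 (1.93% of all genes) and 1 for MB against P14 (47.7%). For P14 against P1, the groups alone gave 2 (27.6% of all genes) and the high set alone 4 (30.3%). The start site model table, which holds 6 of the members and not *Adcyap1*, gave 0 for P14 against P1 (9.02% of its genes), 1 for MB against P7 (34.5%) and 0 for MB against P14 (50.7%). For MB against P14 the transcript table gave 1 (50.4%) and the replicate block 1 (48%). Leaving out 1 library gave 0 to 2 for P7 against P1, 0 to 3 for P14 against P7, 2 to 4 for MB against P7, 1 to 3 for MB against P14 and 3 to 7 for the 4 ages. Leaving out 1 library also moved the share of all genes called, from 0.0581% (without P1 replicate 2) to 8.36% (without MB replicate 1) for P7 against P1, from 0.809% (without P14 replicate 2) to 18.3% (without MB replicate 1) for P14 against P7, and from 0.997% (without P14 replicate 2) to 18.1% (without MB replicate 1) for P14 against P1.

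The sign of a log2 change turned for *Gnas* and otherwise only for values not called. In the transcript table *Gnas* was at -0.411 for P1 against E15.5, 0.506 for P7 against P1, -0.159 for P14 against P7 and -0.294 for MB against P7, and *Prkar2b* at 0.011 for MB against P14 (0.010 in the start site models). With the counting set as a term, *Prkacb* was at 0.114 for P1 against E15.5. For P7 against P1 the term gave 0.568 for *Adcyap1r1*, 0.876 for *Gnas*, -0.278 for *Prkacb* and -0.036 for *Prkar1a*. For P14 against P7 it gave -0.532 for *Adcyap1r1*, -0.349 for *Gnas* and -0.156 for *Pde4d*, and for MB against P7 it gave -0.550 for *Adcyap1r1* and -0.873 for *Gnas*. The low set alone gave -0.775 for *Adcyap1r1* and -1.517 for *Gnas* in MB against P7, and the high set alone 0.130 for *Adcyap1r1* and 0.065 for *Prkaca* in MB against P14. *Prkaca* in P14 against P7 was at 0.019 with RLE scaling, 0.019 with DESeq2 and 0.032 with the replicate block.

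Leaving out 1 library gave ranges across 0 for *Adcyap1r1* in P7 against P1 (-0.284 to 0.036), P14 against P1 (-0.103 to 0.107), MB against P7 (-0.185 to 0.303) and MB against P14 (-0.371 to 0.103). The same held for *Prkaca* in P14 against P7 (-0.151 to 0.265), MB against P7 (-0.296 to 0.120) and MB against P14 (-0.283 to 0.039). It held for *Pde4d* in P7 against P1 (-0.056 to 0.572) and P14 against P7 (-0.075 to 0.469), for *Prkar1a* in P14 against P7 (-0.015 to 0.200) and for *Prkar2b* in MB against P14 (-0.099 to 0.053). Titles share replicate numbers. Over 30 same-numbered pairs of libraries the correlation of deviations from the group means was -0.312 to 0.332 (median -0.0128), with 7 over 0.1. The median over pairs with other numbers was 0.00597. Such correlations cannot exclude a shared preparation, and the titles do not say whether equal numbers mark paired samples. With the replicate block the only member call lost was *Pde4d* in MB against P14 (-0.697, FDR = 0.0583).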
